A study of Mus musculus with 8 samples.

Results

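The Hox genes were followed in the gastrocnemius (GAS) muscle of mice in which MYTHO, a regulator of muscle autophagy encoded by D230025D16Rik, had been knocked down. Members were the genes of the array table whose symbol is Hox, a letter from a to d and a number, with 1 probe set kept per symbol. All 39 such symbols matched RefSeq genes, and they lay on 38 probe sets of the 22206 in the table, because Hoxd3 and Hoxd4 share a probe set. By cluster, 11 probe sets belonged to Hoxa, 10 to Hoxb, 9 to Hoxc and 8 to Hoxd. Another 3 probe sets also name a neighbouring transcript, namely Hoxa7 with Mira, Hoxa9 with Mir196b and Hoxb4 with Mir10a, and cannot separate the genes they name.

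The arrays came from male C57/Bl6j mice, 14 weeks old by the labels, and were taken 3 weeks after a serotype 1 adeno-associated virus (AAV) had been injected into the muscle. The AAV sh-RNA MYTHO group carried a short hairpin RNA against the D230025D16Rik transcript and the AAV sh-RNA scrmb group a scrambled hairpin, both under a U6 promoter, which is active in any cell the virus enters. Each group had 4 arrays, and the column names give the same 4 animals in both groups, called A to D here. By the methods, the hairpin against MYTHO was injected on the right and the control in the other leg, so that treatment and body side cannot be told apart. A single hairpin was used and no muscle without virus was on these arrays. The samples are whole muscle, so that fewer cells of a type and less RNA per cell cannot be told apart.

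Hox genes encode homeodomain transcription factors that specify position along the body axis. In mammals they lie in 4 clusters, Hoxa to Hoxd, and the number of a gene gives its place in its cluster: low numbers are used towards the head and high numbers towards the tail and the tip of the limb. In the limb bud, higher-numbered Hoxa and Hoxd genes pattern the part nearest the trunk, the middle part and the foot in turn. Hoxc9, Hoxc10 and Hoxc11 are used in the hindlimb. Adult cells of mesodermal origin, including muscle cells and fibroblasts, keep part of the Hox pattern of their site of origin.

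The clusters also hold microRNAs, short RNAs that pair with messengers through a seed at bases 2 to 8. They are shown because the probe sets of Hoxa9 and Hoxb4 are annotated to 2 of these loci, and the capitals mark the seed. On GRCm38.p6, the RefSeq build equal to mm10, Mir10a lies on the plus strand at chr11:96317186-96317208, just before the start of Hoxb4 (chr11:96318267-96321638) and within the annotated span of Hoxb3. Mir10b lies on the plus strand at chr2:74726074-74726096, within the annotated span of Hoxd4 (chr2:74721978-74729160). Mir196b lies on the minus strand at chr6:52230129-52230150, between Hoxa9 (chr6:52223097-52227370) and Hoxa10 (chr6:52231197-52240854). The mature miR-196a comes from a locus in the Hoxb cluster (chr11:96265187-96265208) and from one between Hoxc10 and Hoxc9 (chr15:102973365-102973386). Mature sequences are those of RefSeq.
mmu-miR-10a-5p: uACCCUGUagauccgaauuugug
mmu-miR-10b-5p: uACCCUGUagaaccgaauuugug
mmu-miR-196a-5p: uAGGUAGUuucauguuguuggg
mmu-miR-196b-5p: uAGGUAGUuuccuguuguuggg
The pair miR-10a and miR-10b shares its seed and 22 of 23 bases. The pair miR-196a and miR-196b shares its seed and 21 of 22 bases.

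Homeodomains bind short sequences with a TAAT core, and Hox proteins are known to act on Hox genes. RefSeq promoter windows, from 250 bases before to 50 bases after a start, were at hand for 22 of the 39 genes, as 24 windows. The letters TAAT or ATTA, which are the same core on the opposite strands, occurred in 19 of the 24 windows (79.2%), beside 58.0% of 32851 windows of the same length in the whole table. Hox windows held a median of 14.5 CpG dinucleotides, beside 7 in all windows. Shown are the windows of Hoxd8, which stood above every reference limit used below, and of Hoxb4, whose arrays did not overlap between the groups. Both are on the plus strand of GRCm38.p6, at chr2:74704365-74704664 and chr11:96318017-96318316, with the core in capitals.
Hoxd8: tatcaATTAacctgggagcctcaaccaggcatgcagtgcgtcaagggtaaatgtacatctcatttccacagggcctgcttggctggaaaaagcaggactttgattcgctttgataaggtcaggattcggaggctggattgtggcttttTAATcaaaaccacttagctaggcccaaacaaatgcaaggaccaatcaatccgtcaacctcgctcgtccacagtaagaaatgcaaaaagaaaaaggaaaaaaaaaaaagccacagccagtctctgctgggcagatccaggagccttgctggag
Hoxb4: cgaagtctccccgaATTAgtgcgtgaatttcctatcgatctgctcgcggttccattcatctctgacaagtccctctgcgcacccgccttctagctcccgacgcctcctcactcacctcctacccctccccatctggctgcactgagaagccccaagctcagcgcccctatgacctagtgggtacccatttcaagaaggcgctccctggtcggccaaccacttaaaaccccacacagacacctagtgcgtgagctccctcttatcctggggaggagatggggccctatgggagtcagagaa
A match of these letters is a description and not a binding site.

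The targeted gene was read first, as a check of the labels. Signals are deposited on the log2 scale, where a difference of 1 is a doubling. D230025D16Rik read 11.35, 11.31, 10.78 and 11.05 in scrmb (animals A, B, C and D, the order used throughout) and 8.16, 8.20, 8.80 and 8.08 in MYTHO. The MYTHO muscle of animal C was the highest of its group, and the groups did not overlap, at means of 11.12 ± 0.26 and 8.31 ± 0.33 (SD, n = 4 each). The difference was -2.81 (SE 0.21), with an adjusted p of 0.00044 from the limma fit. The arrays resembled each other, with medians over all probe sets from 6.39 to 6.47 and Pearson correlations across probe sets from 0.972 to 0.988. All 7 skeletal muscle markers lay far above background, with means of 18.13 to 19.93, the last being the ceiling of the scale. Among them, Mb, the oxygen-binding myoglobin, was higher at an unadjusted p under 0.05, as 4.81% of all probe sets were, with a difference of 0.55 and an adjusted p of 0.326 in limma. Of the limb identity genes, Tbx4, which marks the hindlimb, averaged 7.52, while Pitx1, another hindlimb gene, averaged 4.98 and Tbx5, a forelimb gene, 5.60. The latter pair stayed within the background range defined next.

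Probe sets differ in brightness per transcript, so the signals of different Hox genes give no order of their transcript levels. Each gene was placed against 1079 probe sets of olfactory receptor genes, a family used for smell and, for most members, not known in muscle. Their signals ran from 3.21 to 8.28, with a median of 5.31 and a 95th percentile of 6.70. A gene was called above this reference where its mean over the 8 arrays exceeded that percentile. This held for 12 of 38 Hox probe sets (31.6%), beside 45.4% of all probe sets. Hoxa9, at 6.71, lay just inside the limit and Hoxc11, at 6.57, just outside. A signal below the limit does not show that a gene is silent.

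Counts by position and by cluster are to be read beside the 45.4% of all probe sets above the reference. At positions 1 to 4, 2 of 11 probe sets passed (Hoxa3 and Hoxa4). At positions 5 to 8, 5 of 11 passed (Hoxa7, Hoxb7, Hoxc6, Hoxc8 and Hoxd8), near the share of all probe sets. At positions 9 and 10, 5 of 7 passed (Hoxa9, Hoxa10, Hoxc9, Hoxc10 and Hoxd10). At positions 11 to 13, 0 of 9 passed. By cluster, 5 of 11 passed in Hoxa, 1 of 10 in Hoxb, 4 of 9 in Hoxc and 2 of 8 in Hoxd. The shares in Hoxa and Hoxc were near that of all probe sets.

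**Figure D1:**
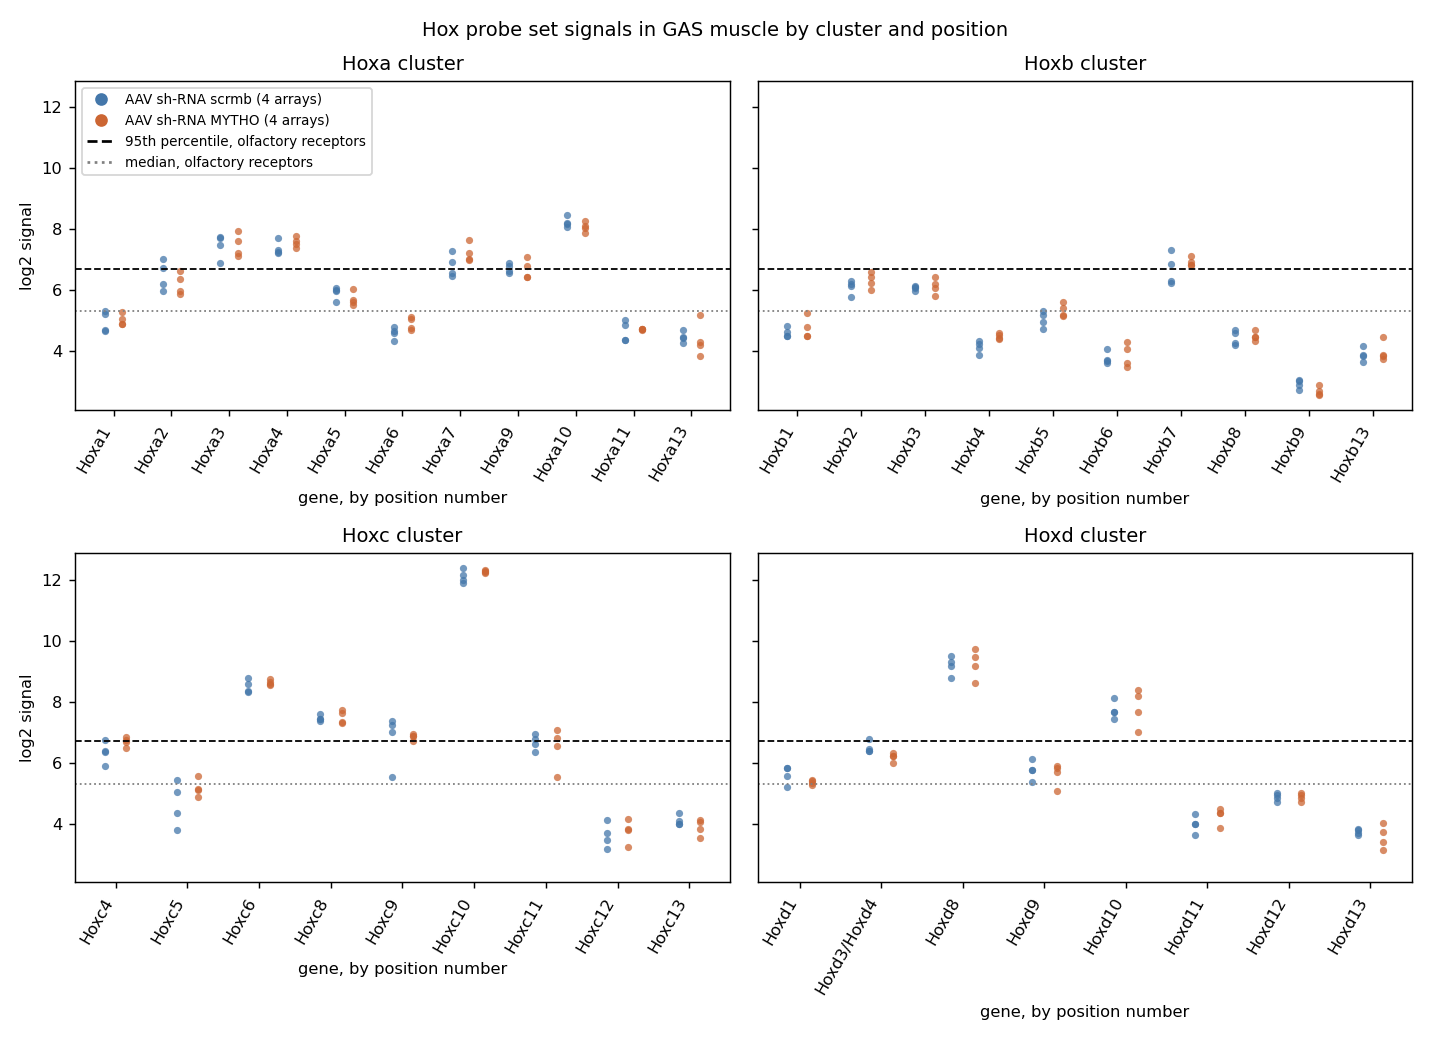
Log2 signal of each Hox probe set on every array, 1 panel per cluster with genes in order of position number, scrmb and MYTHO arrays in separate colours. The dashed line is the 95th percentile (6.70) and the dotted line the median (5.31) of the olfactory receptor probe sets; the Hoxc10 arrays lie near 12, and no probe set at positions 11 to 13 has a mean above the dashed line.

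Stricter references kept fewer genes. Above the 99th percentile of the olfactory receptors (7.36) stood 8 probe sets, namely Hoxa3, Hoxa4, Hoxa10, Hoxc6, Hoxc8, Hoxc10, Hoxd8 and Hoxd10. With vomeronasal and taste receptor genes as the reference (373 probe sets, 95th percentile 8.72), Hoxc10 and Hoxd8 alone passed. The 26 probe sets under the first limit had means from 2.81 to 6.57. The mean of Hoxb9, 2.81, lay below those of all 1079 olfactory receptor probe sets.

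The arrays also ask whether Hox transcripts differed with MYTHO-KD. None of the 38 probe sets passed the test for a change. In limma's test, 0 of 38 had an unadjusted p under 0.05 in the lower direction, where 7.58% of all probe sets did, and 0 of 38 in the higher direction, where 4.81% did. When the fold had to reach 2 as well, which is the threshold of the study, the count was 0 in both directions, beside 1.25% of all probe sets for lower and 0.261% for higher. No Hox probe set had an adjusted p under 0.05, beside 0.027% of all probe sets (6 of 22206). The lowest unadjusted p was 0.0648, for Hoxb4, whose adjusted p was 0.438. With the animal as a block, the lowest adjusted p was 0.426 and still 0 Hox probe sets had an unadjusted p under 0.05, beside 7.66% of all probe sets for lower and 4.94% for higher. Quantile normalization brought 1 probe set (Hoxb4) under that p, and leaving out the scrmb array of animal A, B or D brought 2, 1 and 1, all of them higher in MYTHO and none with an adjusted p under 0.05. Because both legs of 4 animals were used, these p-values measure the spread among those animals only.

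For the 12 Hox probe sets above the reference, the 95% interval of the difference excluded a doubling and a halving in 12 of 12 and a change of 1.5-fold either way in 6 of 12, with bounds from -0.67 to 0.90. Over all Hox probe sets, 26 of which lay in the background range where an interval bounds the signal and not a transcript, the 95% interval of the difference excluded a doubling and a halving for 37 of 38 Hox probe sets, beside 84.2% of all probe sets. The exception was Hoxc5, whose interval reached 1.21. The median SD of a Hox probe set within a group was 0.23, beside 0.30 over all probe sets. The lowest bound of any Hox interval was -0.84. A fall like that of the targeted gene could not show in the 26 probe sets of the background range or just above it. For these, the bounds say nothing about a fall of that size.

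Hox differences ran from -0.32 to 0.51 with a median of 0.07, beside -0.005 over all probe sets. In sign, 25 were positive and 13 negative, beside 10870 positive and 11241 negative of all 22206 probe sets. Of the 1079 olfactory receptor probe sets, 300 were positive and 775 negative. The olfactory receptor probe sets, which serve as background, had a median difference of -0.185 in the same comparison, with 169 of 1079 lower and 16 higher at an unadjusted p under 0.05, where 7.58% and 4.81% of all probe sets were. Their mean signal was 5.62, 5.45, 5.47 and 5.26 on the scrmb arrays and 5.27, 5.28, 5.22 and 5.22 on the MYTHO arrays, so that the groups overlapped through animal D. The part of this shift in the values of dim Hox probe sets was not tested. The 12 Hox probe sets above the reference had a median difference of 0.08 and the 26 below it 0.06.

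**Figure D2:**
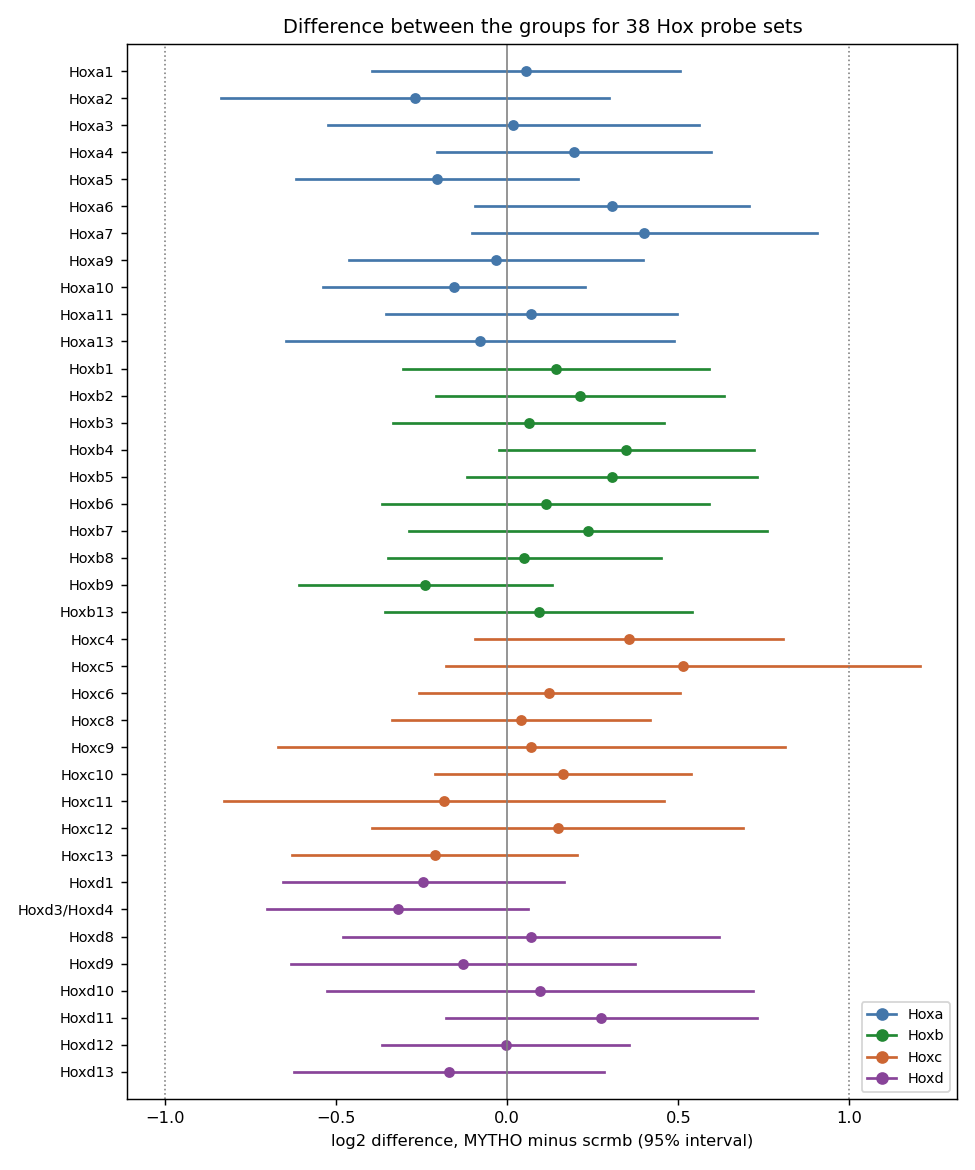
Log2 difference (MYTHO minus scrmb) of each Hox probe set with its 95% interval from the limma fit, ordered by cluster and position. All 38 intervals span 0, and that of Hoxc5 alone reaches past a doubling.

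The a cluster was balanced in sign, with 6 positive and 5 negative differences and a median of 0.02. Hoxa3, which acts in the pharyngeal arches and neck of the embryo, read 7.76, 7.48, 6.89 and 7.73 in scrmb and 7.13, 7.62, 7.95 and 7.23 in MYTHO. The lowest value of the 8 was a scrmb muscle and the highest the MYTHO muscle of the same animal, C, and the difference was 0.02 (SE 0.25, adjusted p = 0.989 by limma). Hoxa4 read 7.25, 7.23, 7.72 and 7.33 in scrmb and 7.38, 7.63, 7.79 and 7.51 in MYTHO. It was higher in the MYTHO muscle of all 4 animals, but the groups overlapped and the difference of 0.20 (SE 0.18) had an adjusted p of 0.724.

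Hoxa7, a gene of the trunk, read 7.30, 6.47, 6.56 and 6.93 in scrmb and 7.65, 7.21, 6.98 and 7.02 in MYTHO. All 4 animals were higher on the MYTHO side, though the scrmb muscle of animal A exceeded 3 of the MYTHO muscles. The difference was 0.40 (SE 0.23, 95% interval -0.10 to 0.90), the largest among genes above the reference, with an adjusted p of 0.517 in limma. Hoxa9 acts with Hoxa10 in the part of the limb nearest the trunk. It read 6.80, 6.90, 6.57 and 6.63 in scrmb and 6.78, 7.10, 6.45 and 6.44 in MYTHO, and the groups interleaved (difference -0.03). Hoxa10 read 8.17, 8.48, 8.06 and 8.22 in scrmb and 8.27, 8.05, 7.87 and 8.12 in MYTHO. It was lower in 3 of 4 animals, by a mean of -0.16 (adjusted p = 0.777 in limma).

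The b cluster had 9 of 10 differences positive, beside 10870 of all 22206 probe sets, and a median of 0.13. Of its 10 members, 9 lay under the reference limit. Hoxb7, a trunk gene and the sole member above the reference, read 6.85, 6.25, 6.32 and 7.32 in scrmb and 6.82, 6.92, 6.82 and 7.12 in MYTHO. The MYTHO values lay within the wider scrmb range and the difference was 0.24 (SE 0.24, adjusted p = 0.748 in limma). Hoxb4, known for its part in the expansion of blood stem cells, read 4.35, 4.23, 3.89 and 4.11 in scrmb and 4.52, 4.41, 4.44 and 4.60 in MYTHO. Every MYTHO value was above every scrmb value, and this was 1 of 38 Hox probe sets so separated upwards, where 2.59% of all probe sets were. The difference was 0.35 (SE 0.17, 95% interval -0.02 to 0.72) and did not pass the test. Its mean of 4.32 was above that of only 8.25% of the olfactory receptor probe sets.

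The c cluster is not used in the forelimb bud at its higher numbers. Above the reference lay 4 of the 9 members of the cluster, beside 45.4% of all probe sets. They include Hoxc6 and Hoxc8, which are not among the higher numbers. Hoxc10, which acts in hindlimb and lumbar patterning, read 12.16, 12.37, 11.89 and 11.98 in scrmb and 12.29, 12.32, 12.21 and 12.23 in MYTHO. The means were 12.10 ± 0.21 and 12.26 ± 0.05 (SD, n = 4 each), far above every olfactory receptor probe set. The MYTHO muscles lay within the scrmb range, and the difference was 0.16 (SE 0.17, 95% interval -0.21 to 0.54, adjusted p = 0.757 in limma). Its neighbour Hoxc9 read 5.52, 7.23, 7.01 and 7.35 in scrmb and 6.72, 6.86, 6.93 and 6.88 in MYTHO. The scrmb muscle of animal A stood apart, and the difference of 0.07 became -0.35 without it. Hoxc11 read 6.62, 6.78, 6.34 and 6.93 in scrmb and 6.79, 7.05, 5.54 and 6.55 in MYTHO. Here the MYTHO muscle of animal C was the low one, and the difference of -0.19 (SE 0.29) became 0.13 without it.

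The remaining named c genes belong to the neck and trunk. Hoxc4 read 5.87, 6.33, 6.37 and 6.75 in scrmb and 6.49, 6.75, 6.67 and 6.83 in MYTHO, higher in 4 of 4 animals, with overlap through animal D. Its difference was 0.36 (SE 0.21), with an adjusted p of 0.518 in limma. Hoxc6 read 8.30, 8.34, 8.59 and 8.78 in scrmb and 8.58, 8.74, 8.55 and 8.63 in MYTHO. Hoxc8 read 7.59, 7.35, 7.42 and 7.43 in scrmb and 7.34, 7.71, 7.61 and 7.29 in MYTHO. Both pairs of groups overlapped, with 2 of 4 animals higher in each case and differences of 0.12 and 0.04. Hoxc5, a dim probe set outside the naming rule, had the largest difference, 0.51 (SE 0.32, adjusted p = 0.553 in limma).

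The d cluster had 3 positive and 5 negative differences, with a median of -0.07. The probe set shared by Hoxd3 and Hoxd4 read 6.39, 6.37, 6.78 and 6.44 in scrmb and 6.21, 5.98, 6.20 and 6.31 in MYTHO. Every MYTHO value lay below every scrmb value, 1 of 38 Hox probe sets so separated downwards, beside 3.87% of all probe sets. The scrmb muscle of animal C stood above the other scrmb muscles, and the separation was lost with quantile normalization or median centring. The difference was -0.32 (SE 0.17, 95% interval -0.70 to 0.06, adjusted p = 0.493 in limma). Hoxd8 read 9.16, 9.28, 8.76 and 9.50 in scrmb and 9.46, 9.18, 8.62 and 9.72 in MYTHO. Animal C was the lowest and animal D the highest in both legs, and the difference was 0.07 (SE 0.25). Hoxd10, which acts in hindlimb motor neuron and limb patterning, read 7.44, 7.64, 8.11 and 7.64 in scrmb and 8.17, 7.64, 7.01 and 8.39 in MYTHO. Its MYTHO values were more spread (SD 0.61) than its scrmb values (SD 0.28), with the lowest in animal C and the highest in animal D, and the difference was 0.10 (SE 0.29, adjusted p = 0.928 in limma).

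The other 22 probe sets had means from 2.81 to 6.36, all under the reference. Over all 38, the MYTHO muscle was higher in 4 of 4 animals for 5 probe sets (Hoxa4, Hoxa7, Hoxb4, Hoxb5 and Hoxc4), beside 8.94% of all probe sets. It was lower in 4 of 4 animals for 2 probe sets (Hoxb9 and the Hoxd3 and Hoxd4 probe set), beside 10.8% of all probe sets. The median Hox difference within an animal was 0.105 in animal A, -0.025 in B, 0.02 in C and -0.035 in D, with an SD over the 4 animals of 0.064. The MYTHO leg was higher for 23, 18, 22 and 19 of the 38 probe sets in animals A to D. The animals therefore differed in the sign of their median.

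**Figure D3:**
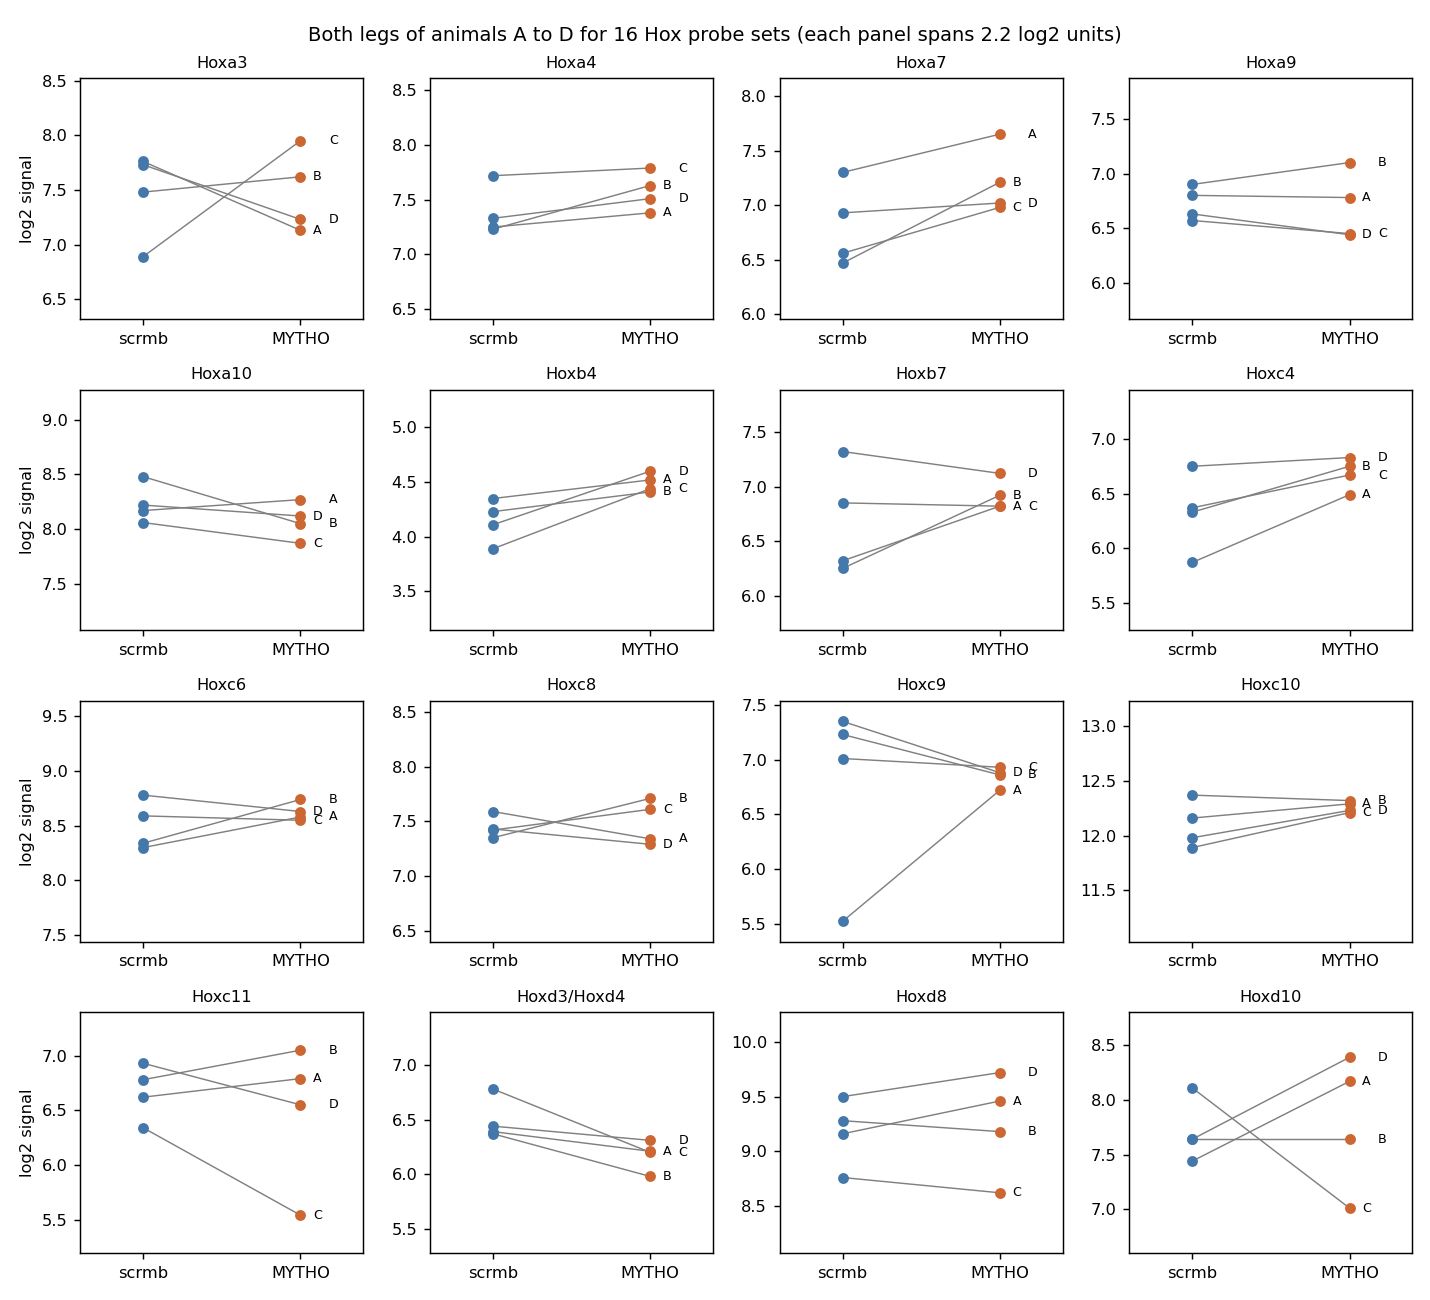
Log2 signals of the named Hox probe sets in the scrmb and MYTHO muscles, with a line joining the legs of each of the 4 animals (A to D). Hoxb4 and the Hoxd3 and Hoxd4 probe set do not overlap between the groups; the others do.

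Genes that act with or on Hox clusters were counted in the same fit, and 0 of their probe sets had an adjusted p under 0.05 in any of the lists. Among 9 cofactors of the TALE homeodomain class, which bind DNA beside HOX proteins, 1 was higher at an unadjusted p under 0.05 and 0 lower, beside 4.81% and 7.58% of all probe sets. This was Pbx4, whose arrays read 4.07, 3.78, 4.55 and 3.93 in scrmb and 4.59, 5.37, 4.72 and 5.09 in MYTHO, without overlap, as 2.59% of all probe sets were upwards. Its difference was 0.86 (SE 0.23, adjusted p = 0.168 in limma), with a mean of 4.51 that lay below the reference limit.

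Of 8 regulators of the clusters, 2 were lower and 1 higher at an unadjusted p under 0.05, beside 7.58% and 4.81% of all probe sets. All 3 were without overlap, 2 downwards and 1 upwards, beside 3.87% and 2.59% of all probe sets. Ctcf, the insulator protein that sets boundaries within Hox clusters, read 10.87, 10.83, 10.66 and 10.79 in scrmb and 9.95, 10.50, 10.16 and 10.32 in MYTHO. The difference was -0.56 (SE 0.18, adjusted p = 0.237 in limma). Rara, the retinoic acid receptor alpha, through which retinoic acid acts on Hox genes, had a difference of 0.65 (adjusted p = 0.290 in limma). Cdx2, a homeodomain activator of Hox genes in the embryo, was dim, with a mean of 4.04, and had a difference of -0.64 (adjusted p = 0.212 in limma). None of them passed the test after adjustment.

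Of 19 Polycomb repressors, which keep Hox genes silent, 1 was higher and 0 lower at an unadjusted p under 0.05, namely Phc1 at 0.56 (adjusted p = 0.264). Of 13 Trithorax and MLL activators, which keep them active, Kdm6b, a histone H3 lysine demethylase, was the one higher at 0.68 (adjusted p = 0.346), and 0 were lower. Of 18 limb patterning genes, Tbx15, a T-box factor of muscle and limb, was the one higher at 0.46 (adjusted p = 0.388), and 0 were lower. Adjusted p-values here are those of limma. Over all probe sets, 4.81% were higher and 7.58% lower at an unadjusted p under 0.05, and the counts of these 3 lists are to be read against those shares. The medians of these lists were -0.03, 0.02 and 0.10, beside -0.005 over all probe sets.

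The animal as a block changed 2 of these list counts. Among the limb patterning genes, 3 in place of 1 were then higher at an unadjusted p under 0.05, with the homeodomain genes Meox2 (difference 0.62, adjusted p = 0.235 in the blocked limma fit) and Meox1 (0.54, adjusted p = 0.350) beside Tbx15. Among the Polycomb genes, Kdm2b was then lower (-0.42, adjusted p = 0.390). The shares over all probe sets in that fit are the 7.66% and 4.94% given above.

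Genes that flank the clusters were measured for 16 of 18 names, with 1 lower and 2 higher at an unadjusted p under 0.05, beside 7.58% and 4.81% of all probe sets, and a median of 0.01. Snx10, which lies outside Hoxa, had a difference of -0.64 (adjusted p = 0.273 in limma). On the Hoxc side, Calcoco1 had 0.57 and Atp5g2 0.70, with adjusted p-values of 0.335 and 0.267 in limma. Of 10 non-coding genes of the clusters, 2 were measured. Hoxd3os1 lay above the reference with a difference of 0.31 (adjusted p = 0.503 in limma), and Hoxa11os below it with -0.09.

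**Figure D4:**
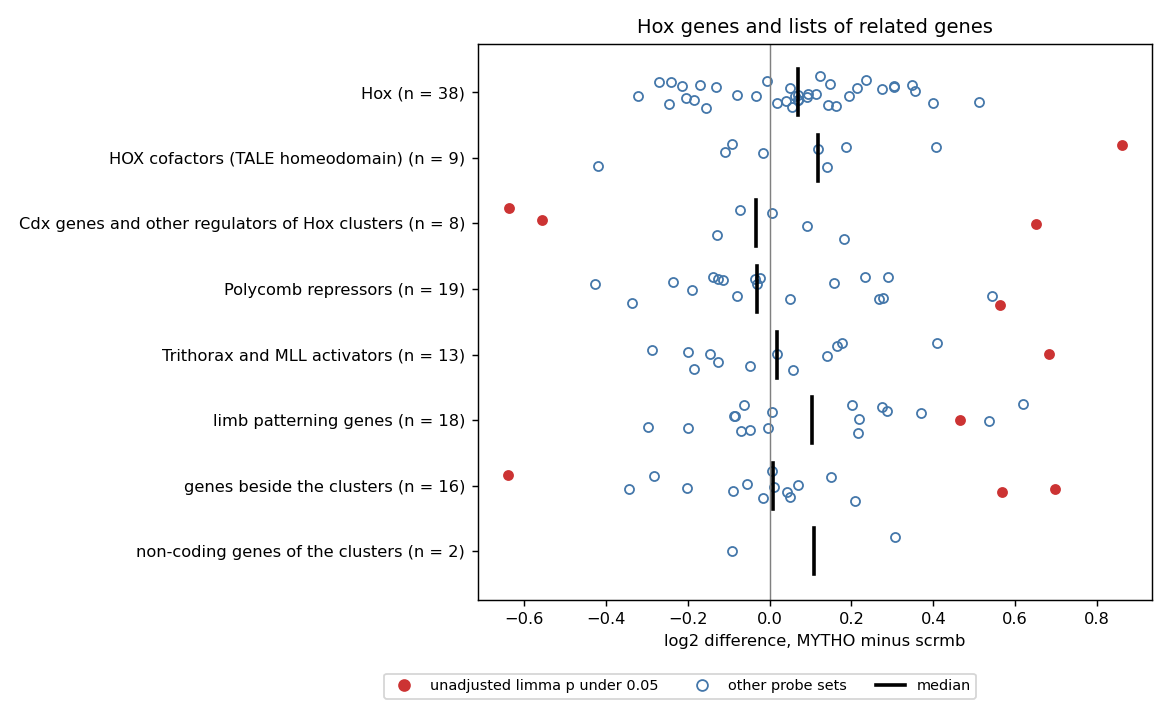
Log2 differences (MYTHO minus scrmb) of the Hox probe sets and of the lists of related genes, 1 point per probe set, with the median of each list as a vertical bar. Filled points have an unadjusted limma p under 0.05; 0 of the 38 Hox probe sets are among them.

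Markers of other cells in the muscle were read beside these results. The 5 endothelial markers were all higher in MYTHO, with a list mean of 10.17 to 10.75 in scrmb and 10.89 to 11.08 in MYTHO, and 2 of them, Tek and Pecam1, had an unadjusted p under 0.05, beside 4.81% of all probe sets for higher. Their adjusted p-values in limma were 0.213 and 0.366. For 3 of the 5, Tek, Pecam1 and Cdh5, the groups did not overlap, beside 2.59% of all probe sets for higher. The fibroblast list ran from 11.50 to 11.64 in scrmb and from 11.30 to 11.95 in MYTHO, and 1 of its 6 genes, Dcn, was lower at an unadjusted p under 0.05 with a difference of -0.60 (adjusted p = 0.236 in limma) and without overlap, beside 7.58% and 3.87% of all probe sets for lower. Lists for satellite cells (5.49 to 5.84 against 5.46 to 5.92), tendon (6.26 to 7.08 against 6.36 to 6.55) and macrophages (6.39 to 6.81 against 6.45 to 6.89) overlapped between the groups. So did those for blood (11.02 to 12.92 against 11.82 to 13.90) and adipocytes, which varied most, from 5.02 to 9.81 in scrmb and from 5.36 to 11.15 in MYTHO. List means can hide members that differ in sign. In the macrophage list, the leukocyte gene Ptprc was lower at an unadjusted p under 0.05 (-0.59, adjusted p = 0.343 in limma), beside the 7.58% of all probe sets, while Cd68 had a difference of 0.54 and was higher at an unadjusted p under 0.05 with the animal as a block alone (adjusted p = 0.350), beside 4.94% of all probe sets. The mean over the 38 Hox probe sets was 5.77 to 5.96 in scrmb and 5.84 to 5.97 in MYTHO. The part of these cell types in the Hox signals was not tested.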

How the data were processed

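Total RNA of 8 GAS muscles was hybridised to Clariom S Mouse arrays. The authors deposited log2 signals per gene-level probe set, which the Transcriptome Analysis Console version 4.0.1 computed by SST-RMA with annotation release 36 on mm10. That step corrects background, normalizes between arrays and caps signals at 19.93, so a shift shared by all genes would not be seen. The deposited table also held group averages, fold changes, p-values and false discovery rates, which were not used.

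From the log2 signals, MYTHO minus scrmb was fitted in R version 4.3.3 by limma version 3.58.1 (lmFit and eBayes with default settings, two-sided, no block), and p-values were adjusted by Benjamini-Hochberg over 22206 probe sets. The fit was tested on simulated data. The 4 arrays per group limit the precision. The pairing comes from the animal numbers in the column names. Deviations from the group means correlated by 0.003, -0.001, 0.135 and 0.087 between the legs of animals A to D. Columns carry no replicate number from the labels.

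Values on each array are given for members with an unadjusted p under 0.05, without overlap between groups, with a mean above the median of all probe sets (6.39), or farthest above the reference in a cluster. From each list of related genes, those with an unadjusted p under 0.05 are named. Hoxc5, the marker genes and the genes called with the block alone were named after its values were seen. The members and lists were chosen with earlier results of these data known. Alternatives covered normalization, filters on low signal, the variance model, array weights, saturated probe sets, the choice of probe set, the fold minimum, the animal as a block and leaving out each array. No Hox symbol had more than 1 probe set, so there were no probe sets of 1 Hox symbol to average. Promoter and microRNA sequences came from RefSeq tables of GRCm38.p6. A further marker list is not reported here.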

Additional observations from a re-analysis of the deposited data

Results flagged for a closer look

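Of 34 groups of 4 arrays examined, 2 held an array whose gap to the nearest other array took an unusually large share of the range of its group, and chance gives about 1 in 20. In the Hoxd3 and Hoxd4 probe set, the scrmb muscle of animal C read 6.78 beside 6.37 to 6.44 in the other scrmb muscles, a gap share of 0.829. For D230025D16Rik, the MYTHO muscle of animal C read 8.80 beside 8.08 to 8.20 in the others, a gap share of 0.833.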

How the results depend on the processing

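No Hox probe set reached an adjusted p under 0.05 or the threshold of the study under any of 18 alternatives in limma, where the lowest adjusted p was 0.295, and a minimum of 1.5-fold in place of 2-fold left the count at 0. With the animal as a replicate block, fixed or random, the counts at an unadjusted p under 0.05 stayed at 0, the median Hox difference at 0.07 and the targeted gene at -2.81, and the block changed no adjusted call of a Hox gene. It moved the counts of 2 lists of related genes and of the macrophage list, as given with them. The median Hox difference was 0.10 with quantile normalization, 0.11 with median centring and 0.0325 to 0.105 with 1 array left out. The targeted gene ranged from -2.98 to -2.74 with 1 array left out.

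The count of Hox probe sets higher at an unadjusted p under 0.05 was 1 with quantile normalization (Hoxb4, 0.39, unadjusted p = 0.0421, adjusted p = 0.375 in limma) and 0 to 2 with 1 array left out. These were Hoxa7 (0.56) and Hoxb4 (0.42) without the scrmb array of animal A, Hoxc5 (0.77) without that of B and Hoxc4 (0.49) without that of D. The count without overlap, lower, was 0 with quantile normalization, median centring or the upper 50% of probe sets, and 1 to 2 with 1 array left out. The count without overlap, higher, was 0 in the upper 75% and upper 50% of probe sets, where 22 and 14 Hox probe sets remained, and 1 to 3 with 1 array left out. Above the vomeronasal and taste receptor reference stood 2 Hox probe sets in place of 12.

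Of 285 differences of named members under the alternatives, 267 kept their sign and 18 turned, and none gained or lost an adjusted p under 0.05. Hoxa9 turned to 0.0075 with median centring, and Hoxa3 to -0.014 and Hoxc9 to -0.0085 with array weights. With 1 array left out, the ranges that crossed 0 were -0.174 to 0.135 for Hoxa3, -0.168 to 0.0517 for Hoxa9, -0.0342 to 0.106 for Hoxc8, -0.349 to 0.261 for Hoxc9, -0.374 to 0.129 for Hoxc11, -0.0883 to 0.278 for Hoxd8 and -0.101 to 0.359 for Hoxd10. The causes were not tested. Dim signals limit most Hox genes, of which 26 lie in the background range.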
